A study of Homo sapiens with 5 samples.

Results

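Notch signalling was examined through 10 genes named by symbol, the receptors NOTCH1, NOTCH2 and NOTCH3, the ligands JAG1 and JAG2, the nuclear factors RBPJ and MAML1, and the targets HES1, HEY1 and NRARP. The members were those present in each of the 3 deposited tables. By this rule 5 of the 10 genes were members, out of 10976 genes that all 3 tables hold: NOTCH1, NOTCH2, JAG1, RBPJ and MAML1. HES1 was in the table for the knockout but not among the rows of the other tables. The remaining 4 genes, NOTCH3, JAG2, HEY1 and NRARP, were not among the rows used here.

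RNA sequencing was performed in HLF, an established hepatocellular carcinoma cell line, in 5 conditions with 1 listed sample each. The deleted gene, USP28, encodes a deubiquitinase. USP28-Ctrl cells received a control guide (sgCtrl) and USP28-KO cells a guide against USP28 (sgUsp28), and the knockout was made by picking single clones after Cas9 transfection. The other conditions were USP28-KO cells (sgUsp28) transduced with an empty vector (pRRL-Ctrl), with wild-type USP28 (pRRL-Usp28-WT, termed USP28-WT) or with a form of USP28 that does not dimerize (pRRL-Usp28-Mono, termed USP28-M). The last 3 conditions thus shared the deletion, with the vector cells as their control.

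Notch receptors are cut at the membrane after a ligand on a neighbouring cell binds them. The released intracellular domain enters the nucleus, joins the DNA-binding protein RBPJ and a Mastermind co-activator such as MAML1, and switches on genes of the HES and HEY families. The nuclear fragment is short-lived, because the FBXW7 ubiquitin ligase recognizes phosphorylated sites in it. USP28 acts on FBXW7 substrates, and NOTCH1 is a reported substrate of USP28. Such control acts on the protein, whereas the values given here are mRNA levels.

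RBPJ binds DNA at the letters TGGGAA, and promoter windows that hold them are shown here for HES1 and RBPJ, the named genes that hold them, and for HES4 and HEYL, the other HES and HEY genes that hold them and that the tables list. HES5 and HEY2 also hold 2 motifs each but were not among the rows. The sequences are RefSeq promoters on GRCh38.p14, cut to the motifs with 20 bases on either side, and read 5′ to 3′ on the strand of the gene. All lie before the transcript start and end short of it. Capitals mark TGGGAA, or TTCCCA where the motif lies on the opposite strand.
HES1, chr3:194136044-194136103, plus strand: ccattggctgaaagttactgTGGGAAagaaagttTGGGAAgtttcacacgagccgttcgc
HES4, chr1:1000148-1000193, minus strand: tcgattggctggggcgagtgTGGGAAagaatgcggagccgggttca
RBPJ, chr4:26319611-26319699, plus strand: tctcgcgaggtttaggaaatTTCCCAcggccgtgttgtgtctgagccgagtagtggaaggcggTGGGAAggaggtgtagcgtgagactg
HEYL, chr1:39639717-39639841, minus strand: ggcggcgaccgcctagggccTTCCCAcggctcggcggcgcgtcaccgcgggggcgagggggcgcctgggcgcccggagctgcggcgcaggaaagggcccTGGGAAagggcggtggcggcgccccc

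The HES1 promoter holds 2 exact matches to TGGGAA in the same direction, beginning 84 and 70 bases before the transcript start. Sites that differ from these letters were not sought in any promoter. A single motif lies 76 bases before the start of HES4. The motifs of RBPJ, at 115 and 72 bases, and those of HEYL, at 178 and 99 bases, face opposite ways. Windows of 250 bases before to 50 bases after the start were found for 9 of the 10 named genes, 13 windows in all, and 2 of them (15.4%), one of HES1 and one of RBPJ, held the motif on either strand. Of all 35116 such windows, 24.0% held it. At least 2 motifs were present in these 2 windows of the named genes and in 3.80% of all windows. For the longer form GTGGGAA, which is part of the matches to TGGGAA, the same 2 of 13 windows compared with 6.25% of all windows. No match was found in the windows of NOTCH1, NOTCH2, JAG1 or MAML1, and RBPJ had 5 windows, of which 1 held it. A match of letters describes the sequence and does not show binding.

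All expression values below are the authors' means, that is, the average log2 CPM (reads of a gene scaled to the library size) over all libraries of a fit. One fit was taken to cover USP28-Ctrl and USP28-KO cells together (the knockout fit). The other was taken to cover vector, USP28-WT and USP28-M cells together (the reconstitution fit). The samples behind each average are not named. They were inferred from the compared conditions and, for the reconstitution fit, from identical averages in both of its comparisons. Levels of a single condition were not analysed here, so no value shows the effect of deleting or restoring USP28, and no spread between replicates can be given. The knockout fit lists 11102 genes down to an average log2 CPM of 1.70, and the reconstitution fit 12342 genes down to 0.40. The average CPM of the 1000 lowest genes increased in steps of 0.130 and 0.0328, which corresponds to about 7690000 and 30500000 reads over all libraries of the respective fit. Divided by that step, 97.1% and 71.6% of the low values were whole to within 0.1 reads. Reads per gene were derived from these steps, so whole reads added to every gene before averaging, if any, would be counted as well. Intervals given below are 95% Poisson intervals on the reads over all libraries and cover counting error only.

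USP28 itself had an average log2 CPM of 5.15 in the knockout fit and of 9.79 in the reconstitution fit, 24.9-fold more on the CPM scale, where USP28 transgenes were present in 2 of the 3 conditions. This level is an average over conditions and does not check the label of any one of them. Of 11 hepatocyte markers, 3 were listed in the knockout fit and 4 in the reconstitution fit. ALB, AFP, APOA1, APOB, TTR, TF and HNF4A, the genes for albumin, alpha-fetoprotein, transport proteins of the plasma and a liver transcription factor, were in neither. The epithelial keratins KRT8 and KRT18 were at 11.18 and 10.66 in the knockout fit. FGB was listed in both fits, at 6.003 and 3.20, and SERPINA1 in the reconstitution fit only, at 1.88. All 4 mesenchymal markers were listed, with VIM, which encodes vimentin, at 11.71 in the knockout fit. CDH2 was at 7.72 there, FN1 at 6.32 and ZEB1 at 4.31. None of the 4 endothelial markers was listed (0 of 4). Of 4 leukocyte markers, CD68, a lysosomal protein, was listed in both fits and CD14 in the reconstitution fit at 0.93.

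The receptors were expressed at very different levels. NOTCH2 (NCBI gene 4853) was the most abundant of the named genes, with an average log2 CPM of 8.20 in the knockout fit and 8.82 in the reconstitution fit. On the CPM scale these levels were 294 (282 to 307) and 453 (445 to 460). NOTCH2 lay above 94.8% of the genes in the knockout fit and above 97.4% in the reconstitution fit. Percentiles are not corrected for transcript length, which favours long transcripts, unless given per kilobase. NOTCH1 (NCBI gene 4851) was at 3.65 and 3.996 on the log2 CPM scale, or at 12.5 CPM (10.1 to 15.2) and 16.0 CPM (14.6 to 17.4). These levels were above those of 15.4% and 33.3% of the genes of the fits. The fits list different genes, and among the genes that both hold the shares were 14.7% and 25.1%. The NOTCH1 value of the knockout fit rests on about 96 reads over all libraries, and that of NOTCH2 on about 2270. NOTCH3 and NOTCH4 were not among the rows.

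**Figure D1:**
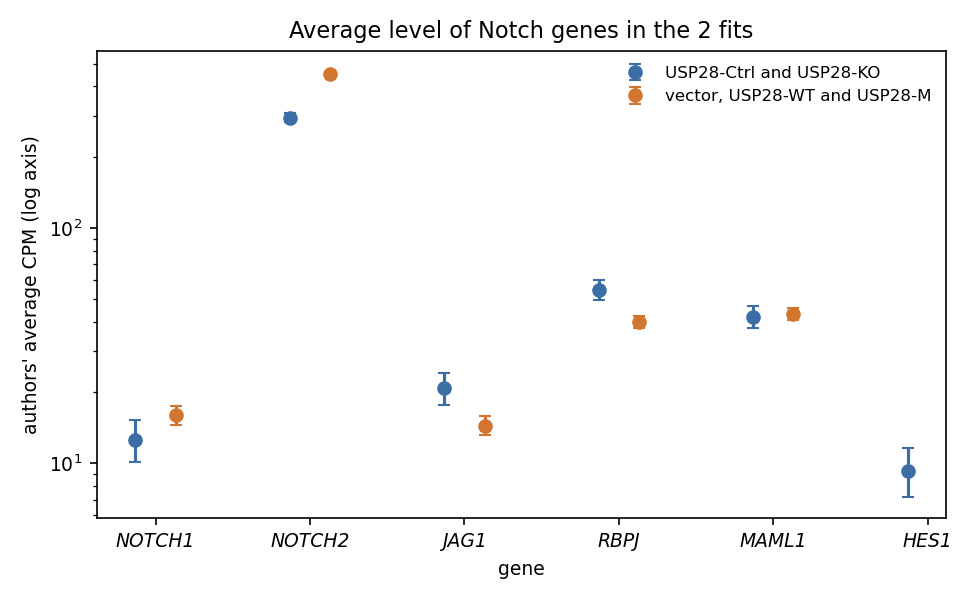
The authors' average CPM (log axis) is shown for the 5 members and HES1, with blue points for the fit of USP28-Ctrl and USP28-KO cells and orange points for the fit of vector, USP28-WT and USP28-M cells. Bars are 95% Poisson intervals on the reads, which cover counting error only; NOTCH2 stands at 294 and 453 CPM, and the other members lie between 12.5 and 54.3 CPM in both fits.

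Levels of different genes were compared per kilobase of the longest transcript in GENCODE release 29. NOTCH2 and NOTCH1 have longest transcripts of 11389 and 9306 bases. Per kilobase, NOTCH2 reached 25.9 CPM in the knockout fit and 39.8 CPM in the reconstitution fit, and NOTCH1 1.34 and 1.71 CPM. NOTCH2 was thus 19.2-fold and 23.2-fold above NOTCH1 per kilobase, or 6.98-fold and 8.42-fold with the median transcript length of each gene. Ranked per kilobase of the longest transcript, NOTCH2 lay above 74.4% and 85.4% of the genes with a known length. NOTCH1 lay above 3.13% and 13.9% of them. The gene NOTCH2NLA, a partial copy of NOTCH2 with near-identical sequence, was listed at 6.06 and 6.20 on the log2 CPM scale. On the CPM scale, without correction for length, NOTCH2NLA amounted to 22.7% and 16.2% of NOTCH2, and reads could have been divided between both genes in the counting.

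**Figure D2:**
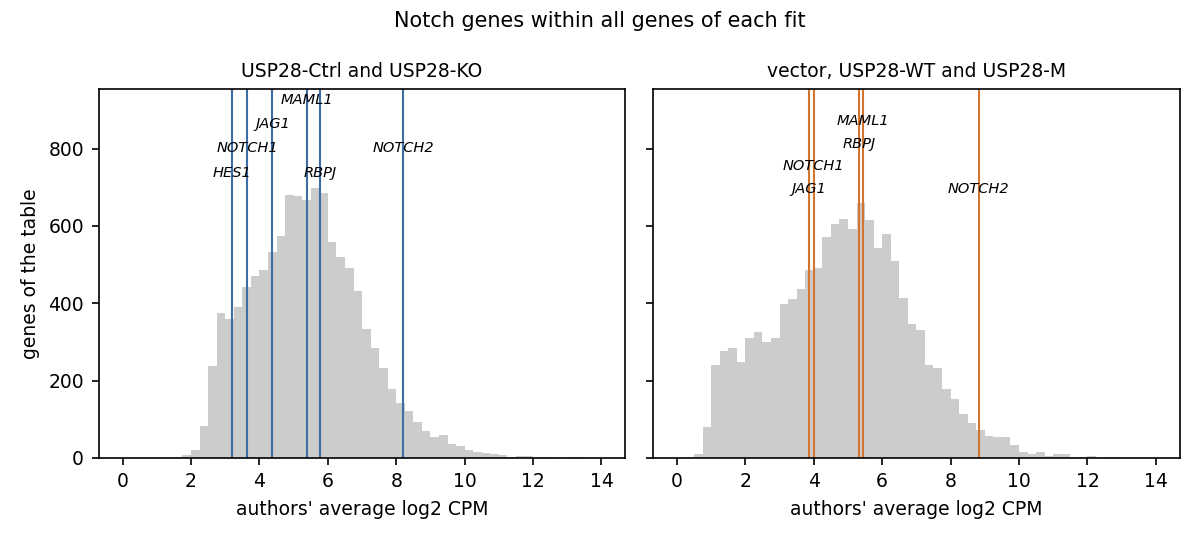
Grey bars give the number of genes at each average log2 CPM, with the knockout fit on the left and the reconstitution fit on the right, and vertical lines mark the named Notch genes. NOTCH2, above 94.8% and 97.4% of the genes, lies in the upper tail, RBPJ and MAML1 lie near the middle, and NOTCH1, JAG1 and HES1 lie in the lower part. The levels shown are not corrected for transcript length.

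JAG1 (NCBI gene 182), which encodes a membrane-bound ligand, was the ligand with the highest average level in both fits before correction for length. Its average log2 CPM was 4.38 in the knockout fit and 3.85 in the reconstitution fit, or 20.8 CPM (17.7 to 24.3) and 14.4 CPM (13.1 to 15.9). These levels lay above 28.4% and 31.0% of the genes. Ranked only among the genes that both fits hold, they lay above 27.7% and 22.5%. The direction of this change in rank thus depended on the genes counted. Per kilobase JAG1 was at 3.50 and 2.43 CPM, above 16.8% and 20.1% of the genes with a known length. The other ligand genes of the list that were present were DLL3, which encodes a ligand that acts within the cell and inhibits the receptor, and DLK2, which encodes a related membrane protein. Per kilobase, DLL3 was at 3.40 and 2.92 CPM, and DLK2 at 5.04 and 3.97 CPM. The ratio of JAG1 to DLL3 per kilobase was 1.03 and 0.833, and that of JAG1 to DLK2 0.694 and 0.612. With median transcript lengths JAG1 was above both, 4.76-fold and 3.86-fold above DLL3 and 4.23-fold and 3.73-fold above DLK2, so the order of the ligands per kilobase depended on the length used. JAG2, DLL1, DLL4 and DLK1 were not among the rows.

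RBPJ (NCBI gene 3516), the DNA-binding partner of all Notch receptors, was at 5.76 and 5.32 on the log2 CPM scale, or at 54.3 CPM (49.2 to 59.8) and 39.8 CPM (37.6 to 42.1). MAML1 (NCBI gene 9794), a co-activator that binds the complex of RBPJ and the receptor fragment, was at 5.39 and 5.43, or at 41.8 CPM (37.4 to 46.7) and 43.1 CPM (40.8 to 45.5). Before correction for length, both genes lay close to the middle of all genes, at percentiles 60.7 and 51.3 of the knockout fit and 58.2 and 60.6 of the reconstitution fit. Ranked per kilobase, they were at percentiles 43.7 and 36.8 of the knockout fit and 43.9 and 46.7 of the reconstitution fit. Per kilobase, RBPJ exceeded MAML1 in the knockout fit by 1.24-fold and stood at 0.884 of it in the reconstitution fit. With median transcript lengths RBPJ was above MAML1 in both fits, by 1.66-fold and 1.18-fold, so the direction in the reconstitution fit depended on the length used. The other Mastermind genes, MAML2 and MAML3, had lower levels. MAML1 was 4.75-fold and 3.79-fold above MAML2 per kilobase, and 3.46-fold and 1.91-fold above MAML3. With median transcript lengths MAML1 stayed above both, by 22.1-fold and 17.6-fold for MAML2 and by 2.70-fold and 1.49-fold for MAML3.

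HES1 (NCBI gene 3280), a transcriptional repressor and the best-known direct Notch target, had an average log2 CPM of 3.21 in the knockout fit, or 9.23 CPM (7.21 to 11.6), from about 71 reads. Before correction for length, this level lay above 8.94% of the genes. Per kilobase HES1 was at 5.85 CPM, between MAML1 at 7.30 and JAG1 at 3.50, and above 30.1% of the genes with a known length. HES1 was not among the rows of the reconstitution fit, whose lowest level is 0.40. The filter on low genes is not given, so no level of HES1 in that fit can be inferred. Of the 1662 genes with a log2 CPM from 3 to 4 in the knockout fit, 33 (1.99%), HES1 included, were missing from the rows of the reconstitution fit. HES4, a related repressor gene, was 3.23-fold above HES1 per kilobase in the knockout fit and was listed in both. Ordered per kilobase, the knockout fit ran from NOTCH2 through RBPJ, MAML1, HES1 and JAG1 to NOTCH1, and the reconstitution fit from NOTCH2 through MAML1, RBPJ and JAG1 to NOTCH1. With median transcript lengths, HES1 moved to the last place in the knockout fit, at 7.13 CPM per kilobase, with the others in the order given above. In the reconstitution fit, both RBPJ and MAML1 and JAG1 and NOTCH1 then changed places, with RBPJ at 57.1, MAML1 at 48.4, NOTCH1 at 21.5 and JAG1 at 19.1 CPM per kilobase. Because the spread between libraries is not known, it cannot be said which neighbours in this order differ beyond it.

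The wider pathway was described with a list of 81 genes, the 10 named genes included, grouped by role. In the knockout fit 61 of them were listed and in the reconstitution fit 62, with 60 in both and 18 in neither. Their median log2 CPM was 5.45 and 5.44, compared with 5.33 and 4.90 over all genes of each fit. All 9 genes for receptor cleavage were listed, led by NCSTN and APH1A, subunits of gamma-secretase, at 6.95 and 6.80 in the knockout fit. Of 8 genes for receptor glycosylation, 7 were listed, with POFUT1, which adds fucose to the receptor, at 7.62 and LFNG, which extends that sugar, at 6.64. Of 4 genes for ligand endocytosis 3 were listed, led by the ubiquitin ligase genes MIB1 at 6.57 and MIB2 at 4.44.

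Among 15 corepressors of RBPJ and their partners, 13 were listed in the knockout fit and 14 in the reconstitution fit. NCOR1, a scaffold of histone deacetylase complexes, was at 7.95 in the knockout fit. Of the 10 genes of the nuclear complex, 9 were listed, with the acetyltransferase genes KAT2A at 7.05 and CREBBP at 6.39. Of 11 genes for receptor turnover, USP28 included, 8 were listed. ITCH, a ubiquitin ligase, was at 6.58, CCNC, the cyclin partner of CDK8, at 5.86, and FBXW7 at 4.32 and 4.06 in the knockout and reconstitution fits. Of 13 targets, 7 were listed in each fit. CCND1 and MYC, cell cycle and growth regulators that many pathways control, were at 8.05 and 6.63 in the knockout fit, whereas of the HES and HEY genes on the list HES1, HES4 and HES7 were listed there. HEYL was listed in the reconstitution fit only, at 1.77, as was the corepressor gene L3MBTL3, at 2.27.

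The averages of both fits were then set side by side. The fits were normalized separately and hold different cells, and only the cells of the reconstitution fit were transduced with vectors. Transduction, USP28 transgenes, cell state, culture, library preparation, read depth and normalization cannot be told apart in this difference, and no test was made. Over the 10976 genes in both, the median difference (reconstitution minus knockout, log2 CPM) was -0.12, with the 5th percentile at -1.24 and the 95th at 0.67. Both receptors were higher in the reconstitution fit, NOTCH1 by 0.35 and NOTCH2 by 0.62. NOTCH2 lay at percentile 94.0 of all differences and NOTCH1 at percentile 84.6. JAG1 was lower by a difference of -0.53 (percentile 23.6) and RBPJ by -0.45 (percentile 27.4), and MAML1 differed by 0.04 (percentile 63.5). The counting intervals of the averages did not overlap for NOTCH2, JAG1 and RBPJ, and overlapped for NOTCH1 and MAML1. They did not overlap for 61% of all genes in both fits, so 3 of 5 members is close to the share of all genes.

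The difference was related to transcript GC content. Among 10684 genes with a known value, Spearman's rho was 0.478 for GC content and -0.011 for transcript length, where genes of a fit share their libraries and are not independent. The median difference was -0.83 in the lowest of 20 bins of GC content and 0.02 in the highest. The longest transcript of RBPJ has a GC content of 38.0%, that of NOTCH1 62.9%, and those of NOTCH2, JAG1 and MAML1 49.4%, 49.6% and 55.5%. Relative to genes of like GC content, NOTCH2 remained at 0.52, NOTCH1 at 0.28 and JAG1 at -0.62. RBPJ changed sign to 0.23, and MAML1 stood at -0.03. The part of GC content in the difference was not tested further.

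Of all genes in both fits, 40.1% were higher in the reconstitution fit, which is the background for the counts by role. All 3 ligand genes present were lower in the reconstitution fit, with differences from -0.53 for JAG1 to -0.22 for DLL3, also relative to genes of like GC content. Of 7 glycosylation genes, 6 were lower, LFNG by a difference of -0.69, and POFUT1 was higher by 0.35. The 3 genes for ligand endocytosis were lower, MIB1 and MIB2 both by differences of -0.52, and MIB1 changed sign to 0.16 relative to genes of like GC content. Of 6 targets present in both fits 5 were higher, MYC by 0.51 and CCND1 by 0.35, and HES4 was lower, with a difference of -1.02. HES7, the other HES gene in both fits, was higher by 0.66. Corepressors were higher in 9 of 13 cases, NCOR1 by 0.17. Other roles were divided more evenly, with 4 genes higher and 5 lower for receptor cleavage. For receptor turnover, USP28 included, 4 were higher and 4 lower. In the nuclear complex 5 were higher, CREBBP by 0.34, and 4 lower, KAT2A with a difference of -1.11. Over the whole list without USP28, 29 genes were higher and 30 lower, with a median difference of -0.01, and 34 of these 59 genes lay above the median of all genes.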

How the data were processed

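Total RNA of HLF cells was made into libraries with a NEBNext Ultra kit. According to the submitters' processing notes, the authors used bcl2fastq 2.20, STAR 2.5.4, edgeR 3.26.8 and the genome build hg19. The read counter, the filter on low genes and the number of libraries per condition are not given in the sources used here. The authors deposited 3 comparison tables. Their log2 fold changes, F statistics, p-values and adjusted p-values are the authors' own findings and were not used. The only deposited measurement used was the average log2 CPM, a mean over all libraries of a fit. Both reconstitution tables hold the same averages and were treated as 1 fit. The header of the knockout table sits 1 field to the left of its values and was read accordingly.

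Genes were matched by symbol, older symbol or NCBI gene ID. Transcript lengths and GC content came from GENCODE release 29 by NCBI gene ID and covered 97.1% and 95.9% of the genes of the 2 fits; hg19 coordinates were not used. Promoters came from RefSeq (GRCh38.p14). Intervals treat reads as independent molecules, which reads without molecular identifiers are not. The read depth estimate was tested on simulated data. No test between conditions was made, since no value of a single library was used.

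The members and the lists were chosen with earlier results of these data known. Named genes were the 10 genes of the rule, the 2 most abundant others of each role in the knockout fit, genes listed in 1 fit only, USP28, FBXW7 and MYC, except 1 gene that is not reported here; further genes (MAML2, MAML3, HES4, HES7 and NOTCH2NLA, and those of the closing observations) were named after their values had been seen. Alternatives changed the reference genes of percentiles, the length, the centring, the symbols, the floor, the number of low genes and the motif. Centring by GC content was added after the data had been seen. Computations used Python 3.11.15, numpy 2.4.6, scipy 1.17.1 and matplotlib 3.10.9.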

Additional observations from a re-analysis of the deposited data

How the results depend on the processing

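The ratio of NOTCH2 to NOTCH1 per kilobase depended on the length used, at 6.98 in the knockout fit and 8.42 in the reconstitution fit with the median transcript length, whereas the longest protein-coding transcript gave the values of the longest transcript. Median lengths raised the levels per kilobase of the named genes by 1.22 to 12.5 times and changed the order of the named genes in both fits. The share of all promoter windows with the RBPJ motif was 6.25% for GTGGGAA. The number of listed pathway genes was 58 in each fit at an average log2 CPM of at least 3, and 61 in each with current symbols only. The depth from the lowest 500 genes was 7700000 and 30500000 reads. Percentiles fell by up to 1.22 points among genes with a symbol, and those among genes that all 3 tables hold fell by up to 8.5 points. Among the latter genes, the percentile of JAG1 was lower in the reconstitution fit than in the knockout fit. Centred on the median of all genes, no member's difference changed sign (NOTCH2 0.74, NOTCH1 0.47, MAML1 0.16, RBPJ -0.33, JAG1 -0.40). No paired analysis was possible because the series lists 1 sample per condition and no value of a single library was used. The values of NOTCH1 and HES1 in the knockout fit rest on about 96 and 71 reads.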

Other observations

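Among the genes of the Notch list outside the named ones, the largest positive differences (reconstitution minus knockout), chosen after the values had been seen, were in TLE3, a Groucho-type corepressor, in CDKN1A, a cell cycle inhibitor, and in SOX9, a transcription factor of progenitor cells of the liver. TLE3 had an average log2 CPM of 2.94 in the knockout fit and 4.31 in the reconstitution fit, CDKN1A 4.13 and 5.39, and SOX9 4.07 and 5.15. Their differences of 1.37, 1.25 and 1.08 lay at percentiles 99.6, 99.4 and 98.8 of all genes in both fits, and were 1.28, 1.20 and 1.01 relative to genes of like GC content. CIR1, a corepressor that links RBPJ to histone deacetylases, was at 4.38 and 3.10, a difference of -1.28 at percentile 4.45, or -0.68 relative to genes of like GC content. The hepatocyte marker FGB, which encodes a fibrinogen chain, was at 6.003 and 3.20, and the extracellular matrix gene FN1 at 6.32 and 5.20, differences of -2.80 and -1.12, or -2.43 and -0.79 relative to genes of like GC content. The other hepatocyte and mesenchymal markers in both fits went in both directions. KRT8, KRT18 and CDH2 were higher by 0.84, 0.55 and 0.34, whereas ZEB1 and VIM had differences of -0.82 and -0.02.

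HES1 was 1 of 126 genes listed in the knockout fit alone. Of these genes, 41 had an average level at or above that of HES1 in the knockout fit and 85 had a lower one, and 908 genes with a lower level than HES1 there were listed in both fits.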
